A study of Mus musculus with 7 samples.

Results

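The slow fibre contractile and calcium genes of skeletal muscle were 10 genes, Myh7, Myl2, Myl3, Tnnt1, Tnni1, Tnnc1, Tpm3, Atp2a2, Casq2 and Sln, chosen by name. Every probe set annotated to exactly 1 of these symbols was taken, which gave 22 of the 34945 probe sets with 1 symbol and 10 of the 18193 genes measured. The tissue was quadriceps femoris of mice overexpressing a mutant form of Twinkle, the helicase of mitochondrial DNA, in a study of mitochondrial myopathy, and of wild-type mice. Total RNA of each biological replicate was hybridised to 1 single-colour expression array, with 3 mutant arrays from mice aged 24, 24 and 21 months (replicates 1 to 3) and 4 wild-type arrays from mice aged 26, 24, 21 and 23 months (replicates 1 to 4). The labels used here do not name the mutation, the promoter of the transgene, the strain or whether animals were pooled. Twnk, the gene of Twinkle, measured -0.15, 0.44 and 0.00 on mutant arrays 1 to 3 and 0.34, -0.13, -0.14 and 0.15 on wild-type arrays 1 to 4. Its values overlapped between the genotypes, and no label says whether its probe set detects the transgene. All values are log2 values relative to the median of the same probe set over the 7 arrays. They show how arrays differ and give no level of expression beyond a rough class, explained with the processing. A difference of 1 on this scale is a 2-fold difference.

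Muscle fibres are built in slow and fast forms that use different genes for the same parts of the contractile machine. Slow (type I) fibres contract slowly, resist fatigue and rely on mitochondria. They carry the slow myosin heavy chain with its light chains, the slow troponin subunits and slow tropomyosin, and a slower calcium pump, many of which the heart uses as well. In mice, slow fibres are a minority in quadriceps and lie mostly in its deep part.

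The slow fibre genes set 2 wild-type arrays apart from the other 5, and no genotype difference passed the test. Wild-type replicates 1 and 2 measured at least 1.53 below each of the other 5 arrays in 8 of the 10 genes, namely the myosin, troponin and tropomyosin genes and Atp2a2. Slow myosin Myh7 lay 14.5-fold below the lowest of the other arrays in wild-type replicate 1 and 6.97-fold below it in wild-type replicate 2. Casq2 was low in the same arrays by less, and Sln was not. The other 2 wild-type arrays both lay above all mutant arrays in 6 of 10 genes, against 6.01% of all genes. The mutant arrays fell inside the wild-type range in 9 of 10, where wild-type replicate 1 set the low end of that range. The share of all genes for which this holds was not counted. In bulk muscle, fewer slow fibres and less of these transcripts in each slow fibre cannot be told apart.

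The arrays carried the RNA of muscle. Of 10 general muscle fibre markers, 9 lay in the highest level class that could be read from the values, between 8 and 16 on the log2 scale. None of 9 measured cerebellum markers did, although the sample descriptions name that tissue. Wild-type replicate 3 stood apart in other genes, with the lowest mean of the general muscle fibre markers (-0.44, against -0.11 to 0.18 on the other 6 arrays) and the highest fibroblast (1.00), leukocyte (0.73) and adipocyte (0.77) marker means. Its 5 prime minus 3 prime Gapdh difference, which reflects how intact the RNA was, measured -0.55 and lay between -0.04 and 0.09 on the other arrays, while its beta-actin difference was 0.12. The 18S ribosomal RNA controls averaged 3.19 in mutant replicate 1, against -0.77 to 0.56 on the other arrays.

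Myh7 encodes the slow myosin heavy chain, the motor protein that defines the type I fibre. It measured 0.00, 0.54 and -0.38 in mutant replicates 1 to 3, and -4.24, -3.19, 0.17 and 0.91 in wild-type replicates 1 to 4. Wild-type replicates 1 and 2 lay far below all other arrays, and the other 2 wild-type arrays lay among or above the mutant arrays. Its promoter window, from the reference, is shown because this gene defines the slow fibre and because, of the 10 genes, it left the widest space, 2.80, between both low arrays and the rest. The window is chr14:54994577-54994876 on the minus strand of GRCm38.p6, from RefSeq, and runs from 250 bases before to 50 bases after the first of 2 listed starts. Capitals here and in the windows below mark motifs of muscle promoters, namely an MCAT element (CATTCC, the site of TEAD factors), an E-box (CANNTG, the site of MyoD family factors), the MEF2 consensus and the TATA box (TATAAA), each on either strand.
Myh7 promoter: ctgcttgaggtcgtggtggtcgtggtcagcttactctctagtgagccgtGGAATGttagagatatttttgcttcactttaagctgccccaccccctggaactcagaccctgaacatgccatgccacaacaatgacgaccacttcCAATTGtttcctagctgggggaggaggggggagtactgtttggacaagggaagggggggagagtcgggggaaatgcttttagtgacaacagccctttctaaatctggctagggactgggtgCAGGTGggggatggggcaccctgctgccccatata
The window holds 1 MCAT element and 2 E-boxes. A second, overlapping Myh7 window in the table, chr14:54994500-54994799, holds 2 E-boxes and 0 MCAT elements and is not printed.

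The slow myosin light chains followed the heavy chain. Myl2, the regulatory light chain of slow fibres and of the ventricle, measured 0.23, 0.00 and -0.01 on mutant arrays 1 to 3 and -3.22, -2.67, 0.80 and 0.36 on wild-type arrays 1 to 4. The 3 mutant arrays lay close together, below wild-type replicates 3 and 4 and far above replicates 1 and 2. Myl3, the essential light chain of the same myosin, measured 0.31, -0.23 and -0.02 on mutant arrays 1 to 3 and -4.37, -1.76, 0.76 and 0.31 on wild-type arrays 1 to 4. The low wild-type arrays differed more from each other in Myl3 than in Myl2, by 2.61 against 0.55. The 3 probe sets of Myl3 all placed wild-type replicate 1 lowest, at -4.99, -3.51 and -4.61, and replicate 2 next, at -1.83, -1.58 and -1.87.

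**Figure D1:**
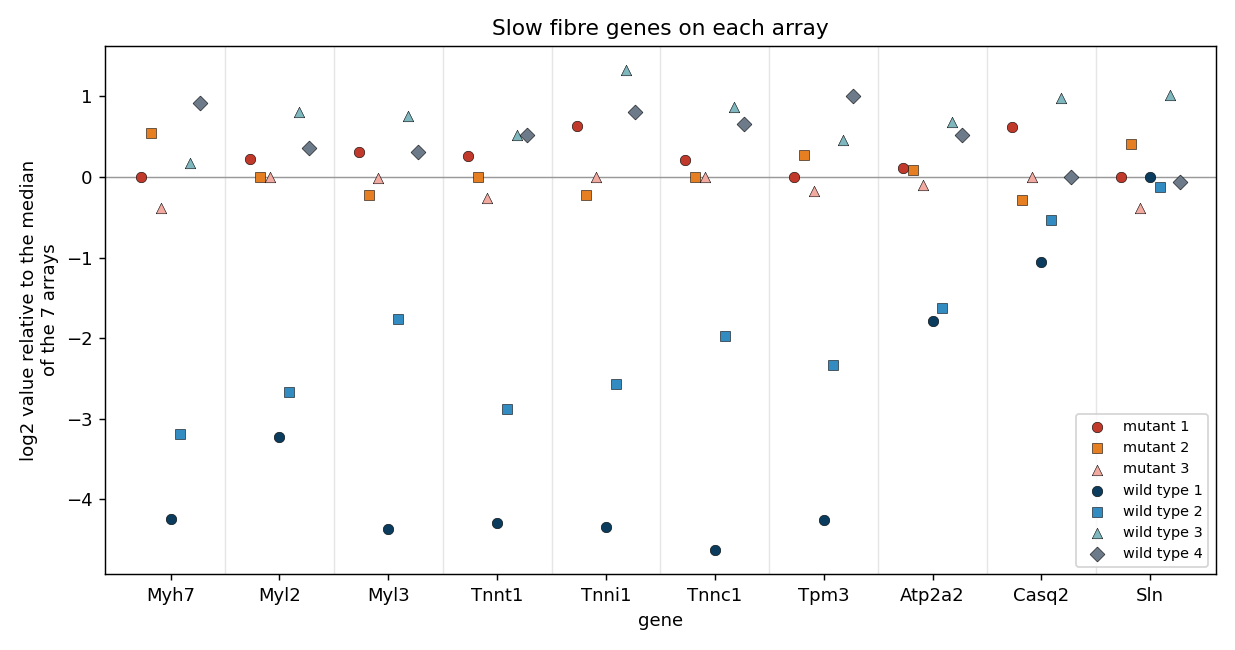
Value of each of the 10 slow fibre genes (x axis) on each of the 7 arrays (y axis, log2 value relative to the gene's median over the arrays, 1 point per array, mutant arrays in warm and wild-type arrays in cool colours). Wild-type replicates 1 and 2 lie at least 1.53 below all other arrays in the 8 genes from Myh7 to Atp2a2, lie below them by 0.24 or more in Casq2 and among them in Sln.

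The slow troponin subunits, the calcium switch of the thin filament, were low in the same 2 arrays. Tnnt1, the slow subunit that binds tropomyosin, measured 0.26, 0.00 and -0.26 on mutant arrays 1 to 3 and -4.29, -2.88, 0.52 and 0.51 on wild-type arrays 1 to 4. Its values fell into a low pair and a group of 5 with a spread of 0.77. Tnni1, the slow inhibitory subunit, measured 0.63, -0.22 and 0.00 on mutant arrays 1 to 3 and -4.35, -2.57, 1.33 and 0.80 on wild-type arrays 1 to 4. It had the highest value of wild-type replicate 3 and the widest range over the 7 arrays among the 10 genes, 5.67. Tnnc1, the calcium-binding subunit shared by slow muscle and heart, measured 0.22, -0.00 and 0.00 on mutant arrays 1 to 3 and -4.63, -1.98, 0.86 and 0.65 on wild-type arrays 1 to 4. It was the gene furthest below the other arrays in wild-type replicate 1, by 4.63 or 24.8-fold, while replicate 2 lay 1.98 or 3.93-fold below them. The Tnnt1 window, chr7:4515926-4516225 on the minus strand of GRCm38.p6, is printed to set a troponin promoter beside that of Myh7.
Tnnt1 promoter: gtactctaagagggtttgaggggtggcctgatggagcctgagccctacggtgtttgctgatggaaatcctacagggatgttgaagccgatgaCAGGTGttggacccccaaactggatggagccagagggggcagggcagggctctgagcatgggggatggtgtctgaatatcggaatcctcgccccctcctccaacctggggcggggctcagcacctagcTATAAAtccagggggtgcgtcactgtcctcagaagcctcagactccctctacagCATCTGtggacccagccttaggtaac
It holds a TATA box and 2 E-boxes.

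Tpm3 separated into probe sets with the slow fibre pattern and probe sets without it. The gene encodes slow muscle tropomyosin, which lies along the thin filament, and also tropomyosins of the cytoskeleton that many cell types make from a second start. Probe set 1449996_a_at measured 0.00, 0.21 and -0.15 on mutant arrays 1 to 3 and -4.53, -2.37, 0.45 and 0.92 on wild-type arrays 1 to 4. Probe set 1449997_at gave nearly the same, with -3.97 and -2.30 in wild-type replicates 1 and 2. The remaining 3 probe sets, all in the middle level class between 4 and 8, lay between -0.24 and 0.70 on every array. On them wild-type replicate 1 measured -0.10, -0.07 and -0.09 and replicate 2 measured -0.11, 0.00 and 0.04, so the low pair lay among the other arrays or within 0.04 of them. The gene value used below is the mean of the first 2, which lie in the highest level class. No source used here says which transcripts each probe set detects. RefSeq lists separate starts for Tpm3, and the windows of the 2 given in the reference are shown, chr3:90072401-90072700 and chr3:90079271-90079570, both on the plus strand of GRCm38.p6.
Tpm3 promoter, upstream start: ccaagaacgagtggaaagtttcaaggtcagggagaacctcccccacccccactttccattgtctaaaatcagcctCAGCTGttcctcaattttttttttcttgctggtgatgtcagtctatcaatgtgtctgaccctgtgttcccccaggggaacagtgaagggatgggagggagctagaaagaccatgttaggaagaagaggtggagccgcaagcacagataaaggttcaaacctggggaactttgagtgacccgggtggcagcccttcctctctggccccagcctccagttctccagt
Tpm3 promoter, downstream start: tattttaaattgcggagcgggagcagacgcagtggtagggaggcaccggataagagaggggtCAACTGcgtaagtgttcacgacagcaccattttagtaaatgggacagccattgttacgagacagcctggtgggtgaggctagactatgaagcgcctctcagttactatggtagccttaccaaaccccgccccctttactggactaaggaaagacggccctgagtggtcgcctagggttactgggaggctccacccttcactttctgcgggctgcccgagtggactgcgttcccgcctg
Each window holds 1 E-box and none of the other capitalised motifs.

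**Figure D2:**
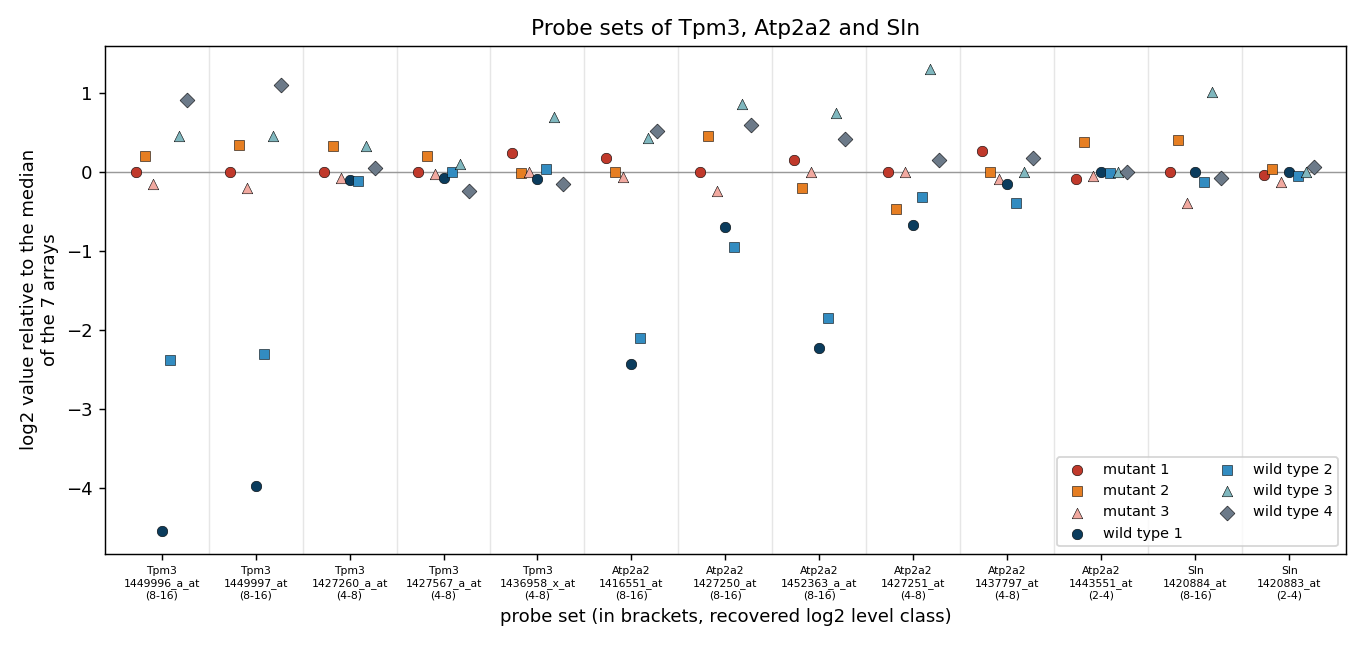
Each probe set of Tpm3, Atp2a2 and Sln (x axis, with the level class read from the values in brackets) on each of the 7 arrays (y axis, log2 value relative to the probe set's median, 1 point per array). Wild-type replicates 1 and 2 are low on 2 of 5 Tpm3 probe sets and, most clearly, on 2 of 6 Atp2a2 probe sets (1416551_at and 1452363_a_at), and not on either Sln probe set.

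The calcium genes followed the contractile genes to different degrees. Atp2a2 encodes SERCA2, the pump that returns calcium to the sarcoplasmic reticulum in slow fibres and heart, and a form of it works in most other cells. Its mean over the 3 probe sets in the highest level class was 0.11, 0.09 and -0.10 on mutant arrays 1 to 3 and -1.78, -1.63, 0.68 and 0.52 on wild-type arrays 1 to 4. The mutant arrays again lay together, between the low and the high wild-type pair. Its probe sets disagreed in size, with wild-type replicates 1 and 2 at -2.42 and -2.09 on 1416551_at, at -2.23 and -1.85 on 1452363_a_at and at -0.70 and -0.94 on 1427250_at. On the 3 probe sets of lower level class the same 2 arrays lay between -0.67 and 0.00. Averaging all 6 probe sets lowered the Atp2a2 difference between genotypes from 0.59 to 0.29, and averaging all 5 of Tpm3 lowered that of Tpm3 from 1.31 to 0.55.

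Casq2, the calsequestrin of slow muscle and heart that stores calcium, measured 0.62, -0.29 and 0.00 on mutant arrays 1 to 3 and -1.05, -0.53, 0.97 and 0.00 on wild-type arrays 1 to 4. The low pair was below all other arrays here too, but replicate 2 only by 0.24, less than the spread of 1.27 among the other 5. The Casq2 window, chr3:102086165-102086464 on the plus strand of GRCm38.p6, is shown as that of a gene in which the low pair was close to the rest.
Casq2 promoter: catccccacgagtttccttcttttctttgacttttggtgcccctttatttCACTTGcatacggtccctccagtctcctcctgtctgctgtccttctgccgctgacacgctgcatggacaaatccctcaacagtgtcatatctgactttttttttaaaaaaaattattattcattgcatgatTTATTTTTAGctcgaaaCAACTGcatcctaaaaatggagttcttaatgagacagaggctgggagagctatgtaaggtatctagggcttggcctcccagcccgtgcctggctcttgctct
It holds the MEF2 consensus and 2 E-boxes.

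Sln did not share the pattern. It encodes sarcolipin, a small membrane peptide that slows the SERCA pump. The probe set in the highest level class measured 0.00, 0.41 and -0.39 on mutant arrays 1 to 3 and 0.00, -0.12, 1.01 and -0.07 on wild-type arrays 1 to 4. Wild-type replicate 3 was high and the other 6 arrays overlapped, with wild-type replicates 1 and 2 in their middle. The second Sln probe set lay in the lowest level class, between 2 and 4, and stayed between -0.12 and 0.07.

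The low pair was not uniform across genes. Wild-type replicate 1 was lower than replicate 2 in 9 of 10 genes, the exception being Sln. The gap between them was 2.65 in Tnnc1, 2.61 in Myl3, 1.92 in Tpm3, 1.78 in Tnni1, 1.41 in Tnnt1 and 1.05 in Myh7. It was 0.55 in Myl2, 0.52 in Casq2 and 0.15 in Atp2a2. In replicate 1, 6 contractile genes lay between -4.63 and -4.24 and Myl2 at -3.22. In replicate 2 the contractile genes spread from -3.19 for Myh7 to -1.76 for Myl3. Wild-type replicate 3 held the highest value in 8 of 10 genes and replicate 4 in the other 2, Myh7 and Tpm3. The 2 low arrays came from wild-type mice of 26 and 24 months and the other wild-type arrays from mice of 21 and 23 months. Mutant mice of 24 months showed no such low values, but they also differ in genotype. The only mouse of 26 months was wild-type replicate 1, so a part of age in the low values cannot be told apart here. With age as a covariate the genotype differences of the 8 genes were between 0.41 and 1.33, against 0.59 to 1.64 without it, and none passed.

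**Figure D3:**
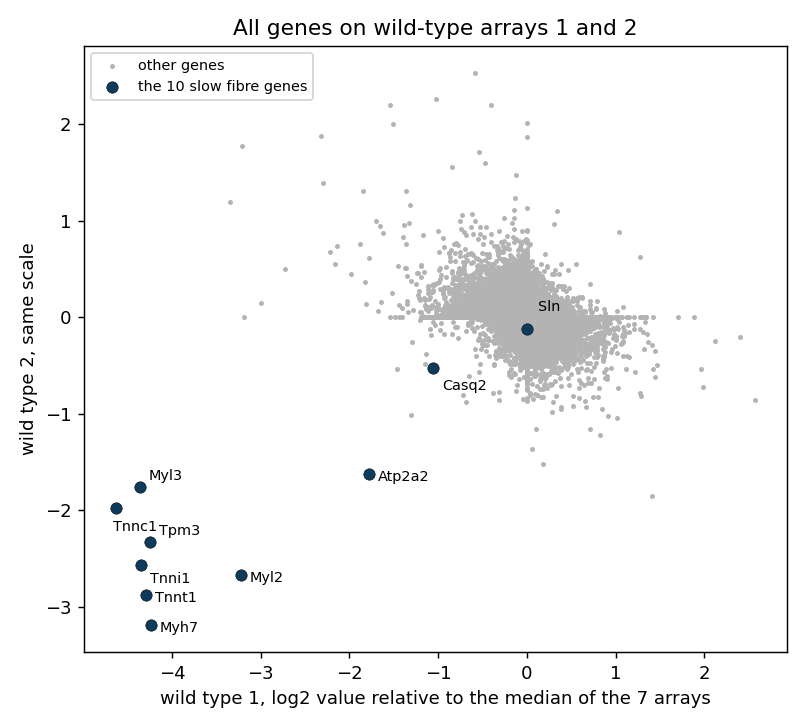
Each gene's value on wild-type replicate 1 (x axis) and on wild-type replicate 2 (y axis), both log2 relative to the gene's median over the 7 arrays, with the 18193 genes in grey and the 10 slow fibre genes in blue. The 8 genes from Myh7 to Atp2a2 lie alone in the lower left corner, Casq2 lies between them and the centre of the cloud, and Sln near the centre.

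Low values shared by these 2 arrays were rare over the whole table. Wild-type replicates 1 and 2 both lay at least 1 below each of the other 5 arrays in 8 of 18193 genes (0.0440%), and all 8 were slow fibre genes of the set described here. No gene lay at least 1 above the others in both arrays (0%). By probe sets, 12 of 34945 met the same rule (0.0343%), and all 12 belonged to the same genes. With a distance of 0.5 the count was 11 genes (0.0605%), the further 3 being Myoz2, Ndrg4 and Prg4, which are named after their values were seen. Myoz2, a Z-disc protein of slow fibres that binds calcineurin, measured -1.31 and -1.01 in wild-type replicates 1 and 2 and -0.14 to 0.87 elsewhere. Ndrg4 measured -0.71 and -0.81 against -0.05 to 1.31 elsewhere, and Prg4, which encodes lubricin, a lubricating proteoglycan of joints and tendons, -1.46 and -0.54 against 0.00 to 2.47. In the opposite direction, Atf3, a stress-induced transcription factor, measured 1.04 and 0.88 in the 2 arrays and -0.69 to 0.08 elsewhere, the only gene 0.5 or more above the others in both (0.00550%). These counts describe arrays and carry no test, since the genes and the 2 arrays were chosen with earlier results of these data known.

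By genotype, 9 of 10 genes had a higher mean in the mutant arrays, and none passed the test. All 3 mutant arrays lay below all 4 wild-type arrays in 0 of the 10 genes, against 1.20% of all genes, and above them in 0 of 10, against 0.846%. The median of the 10 log2 fold changes was 1.30, against -0.01 over all genes, of which 46.5% were positive. The mean of Myh7 was 0.05 ± 0.46 (SD, n = 3) over mutant arrays and -1.59 ± 2.51 (SD, n = 4) over wild-type arrays. Its log2 fold change was thus 1.64 ± 1.24 (SE), which is 3.11-fold, and its limma adjusted p was 1.00. Tnnt1 differed by 1.54 ± 1.19, and the other 5 contractile genes, Myl2, Myl3, Tnni1, Tnnc1 and Tpm3, by 1.26 to 1.34 with standard errors of 1.01 to 1.34. Atp2a2 differed by 0.59 ± 0.65, Casq2 by 0.26 ± 0.47 and Sln by -0.20 ± 0.31. The wild-type SD was 1.33 to 2.72 in the 8 genes with the low pair, and the mutant SD 0.12 to 0.46. In limma's test over all 18193 genes the share called at an adjusted p under 0.05 was 0%, and 0 of the 10 genes were called. At an unadjusted p under 0.05 it was 1.43% of all genes and again 0 of these 10, whose unadjusted limma p ran from 0.226 to 0.589. Exact two-sided permutation p-values for the single genes ran from 0.400 to 0.714, where the smallest these arrays can give is 0.0286.

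Without wild-type replicates 1 and 2, all 10 genes measured lower in mutant muscle, and again none passed. The median of the 10 log2 fold changes was then -0.51, against -0.02 over all genes, of which 55.0% were negative. Tnni1 had the furthest value, -0.93 ± 0.31 (SE), or 1.90-fold lower. Tpm3 stood at -0.70 ± 0.23, Tnnc1 at -0.69 ± 0.13, Atp2a2 at -0.57 ± 0.13, Tnnt1 at -0.52 ± 0.18, Myl3 at -0.51 ± 0.22, Myl2 at -0.51 ± 0.18 and Myh7 at -0.49 ± 0.35. Casq2 stood at -0.38 ± 0.40 and Sln at -0.46 ± 0.39. In 6 of 10 genes, Myl2, Tnnt1, Tnni1, Tnnc1, Tpm3 and Atp2a2, all 3 mutant arrays lay below both remaining wild-type arrays, as they did in 6.01% of all genes, and in 0 of 10 they lay above both, against 5.16%. The same 6 had an unadjusted limma p under 0.05, against 0.533% of all genes called as lower at that level, and every limma adjusted p was 1.00 (0% called). The arrays left out were chosen with their low values in these genes known. Leaving them out raises the wild-type mean and narrows its spread in the genes with the low pair. These counts therefore describe arrays and carry no test. With 3 arrays against 2, an exact permutation test cannot give a p below 0.1. One of the 2 wild-type arrays left is replicate 3, whose muscle marker mean was low and whose fibroblast, leukocyte and adipocyte marker means were high. The part of these differences in the slow fibre values was not tested.

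**Figure D4:**
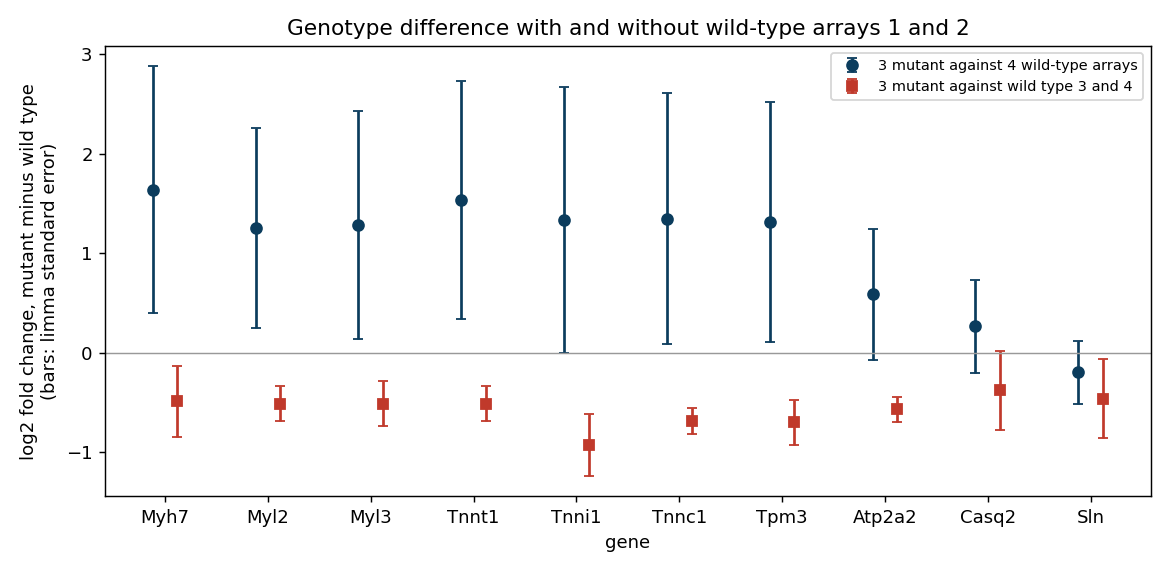
Log2 fold change, mutant minus wild type (y axis), of each slow fibre gene (x axis) over all 7 arrays (blue) and without wild-type replicates 1 and 2 (red), with limma's standard error as bars. Of the 10 genes, 9 change sign between the comparisons, and Sln is below 0 in both.

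Leaving out any single wild-type array moved the genotype differences, which over all arrays was 1.64 for Myh7. Replicates 3 and 4 each moved Myh7 at least as far as replicate 2 did. Without wild-type replicate 1 the log2 fold change was 0.75 for Myh7, 0.62 for Tnnt1, 0.57 for Myl2, 0.32 for Tpm3, 0.28 for Tnni1, 0.25 for Myl3, 0.22 for Tnnc1, 0.18 for Atp2a2 and -0.04 for Casq2. Without replicate 2 it was 1.10 for Myh7, 1.12 for Myl3, 1.11 for Tnnc1 and 0.23 for Atp2a2. Without wild-type replicate 3 or 4 it was 2.22 or 2.47 for Myh7 and 1.00 or 0.94 for Atp2a2. Sln stood at 0.07 without wild-type replicate 3 and at 0.00 without mutant replicate 3. Quantile normalization of the arrays to each other gave 0.86 for Myh7 and 0.79 for the median of the 10 genes. It was run on the centred values, so it ranked deviations from the median and not intensities. Values at the extremes of an array, such as the slow genes in the low pair, are drawn in by it.

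Other genes known from slow or oxidative fibres did not share the low pair as a list. Of 16 such genes, 1 (Myoz2) lay below all other arrays in both, where 2.18% of all genes did, and 9 of the 10 genes described above. Their mean stood at -0.05 on wild-type array 1, within the range of -0.20 to 0.29 on the other arrays. On wild-type array 2 it stood at -0.37, the lowest of the 7 arrays. Pln, phospholamban, which restrains SERCA2, measured -1.14 and -0.38 in the low pair and -0.45 to 1.00 elsewhere. Of genes picked after their values were seen, myoglobin Mb measured -0.09 and 0.00, and the mitochondrial creatine kinase Ckmt2 -0.01 and -0.06, both among the other arrays or within 0.06 of them. Picked in the same way, Ldhb, the lactate dehydrogenase subunit of oxidative tissue, and Fabp3, a fatty acid carrier, were lowest of the 7 arrays in wild-type replicate 1, at -1.02 and -0.81, and measured 0.07 and 0.17 in replicate 2. Csrp3 and, picked in the same way, Ankrd2, stress-responsive proteins of the sarcomere, were high in replicate 1 (1.41 and 0.83) and lowest in replicate 2 (-1.85 and -1.22). The genotype test called 0 of the 16, with 8 positive and 8 negative differences and a median of -0.01. The 4 smallest p-values were those of Smpx (-0.11 ± 0.09), Myh7b (-0.13 ± 0.14), Pln (0.45 ± 0.52) and Csrp3 (-0.66 ± 0.79).

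Fast fibre genes, the counterparts of the slow set, showed no opposite shift in the low pair as a list. Their mean over 14 genes was 0.15 in wild-type replicate 1 and -0.03 in replicate 2, inside the range of -0.43 to 0.17 on the other arrays. Myh4, the fastest myosin heavy chain, measured 0.86 and -0.27 in the low pair and -1.93 and 1.00 in wild-type replicates 3 and 4, with -0.46, 0.94 and 0.00 on mutant arrays 1 to 3. Myh1 measured 0.54 and 0.00 in the low pair and -0.76 to 0.54 elsewhere, and Myh2, the myosin of fast oxidative fibres, -0.01 and -0.36 against -0.23 to 0.18. Wild-type replicate 3 was lowest in Myh4 and Myh1 and highest in most slow genes. Casq1, the fast calsequestrin, measured 0.18 and 0.12 in the low pair, against -0.39 to 0.16 elsewhere. It differed between genotypes by -0.11 ± 0.16. By genotype 0 of the 14 fast genes were called, with 7 differences on each side of 0 and a median of 0.00.

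**Figure D5:**
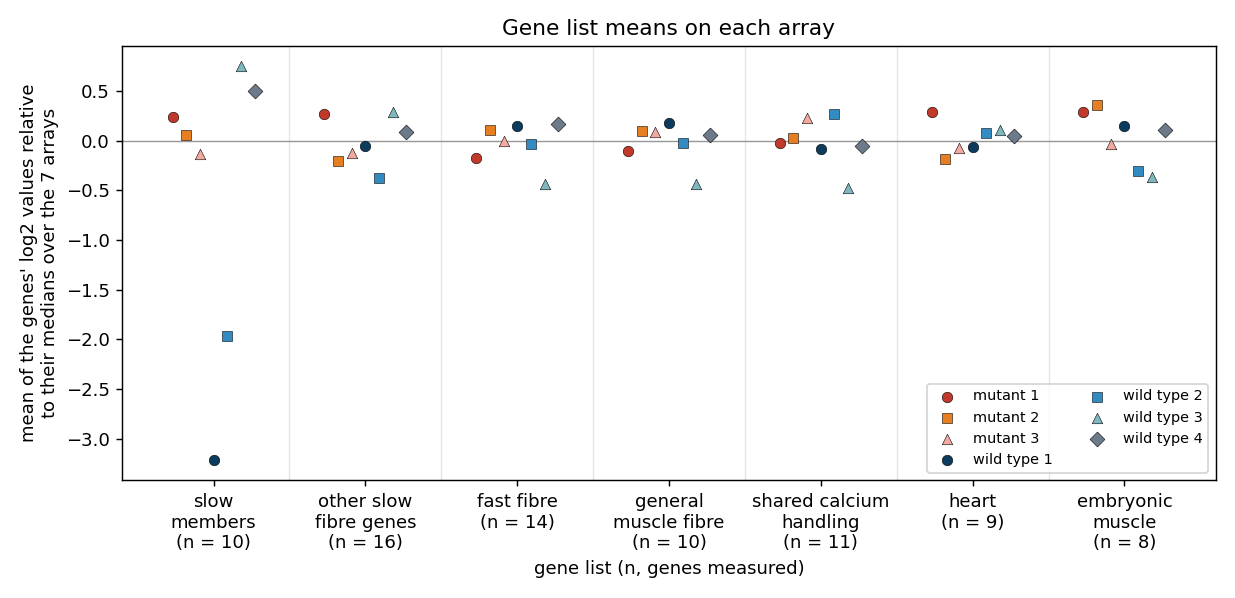
Mean of the genes of the slow set and of 6 other lists of muscle and heart genes (x axis, with the number of genes measured) on each of the 7 arrays (y axis, mean of log2 values relative to each gene's median over the arrays, 1 point per array). In the slow set wild-type replicates 1 and 2 lie at -3.22 and -1.97 and the other arrays between -0.13 and 0.76, while in the 6 other lists shown all 7 arrays lie between -0.48 and 0.36.

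Calcium handling genes used by all muscle fibres were not low in the low pair. The 11 measured of 14 listed averaged -0.08 and 0.27 there, against -0.48 to 0.23 elsewhere, and 0 were called by genotype. All 11 differences were above 0, against 46.5% of all genes, with a median of 0.14, and -0.48 was the mean of wild-type replicate 3. Ryr1, the calcium release channel, differed by 0.49 ± 0.31, with wild-type replicate 3 at -1.29 and the other wild-type arrays at -0.21 to 0.10. Cacnb1, a subunit of the voltage sensor, differed by 0.31 ± 0.20 with the same array lowest.

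Genes that set fibre type were not low as a list in the low pair. The 31 measured regulators averaged 0.15 and -0.06 there, against -0.28 to 0.11 elsewhere. Of them 0 lay below all other arrays in both wild-type replicates 1 and 2, which is near the 2.18% of all genes that did. By genotype 0 were called, as over all genes (0%). Their differences were above 0 in 23, against 46.5% of all genes, with a median of 0.13, and -0.28 was the mean of wild-type replicate 3. Myog, myogenin, measured 0.47, 0.22 and 0.63 on mutant arrays 1 to 3 and -0.57, -0.41, 0.00 and -0.47 on wild-type arrays 1 to 4, a difference of 0.80 ± 0.16 without overlap between genotypes. Its limma adjusted p was 1.00, and a separation of this kind, upward in mutants, occurred in 0.846% of all genes. Esrrg, a nuclear receptor of oxidative metabolism, differed by 0.41 ± 0.22 and had its lowest value, -0.59, in wild-type replicate 2. Ppargc1b, a coactivator of mitochondrial genes, differed by 0.21 ± 0.11 and Mef2c, a muscle transcription factor, by 0.41 ± 0.29.

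Markers of heart did not move with the slow genes, many of which heart also expresses. None of the 9 heart markers lay in the highest level class, 3 lay between 4 and 8 and 6 between 2 and 4. Their mean was -0.07 and 0.08 in the low pair and -0.18 to 0.29 elsewhere, and 0 of the 9 were called by genotype. Nppa, the atrial natriuretic peptide, had the smallest p, at -0.23 ± 0.11. Genes of embryonic muscle averaged 0.15 and -0.31 in the low pair and -0.36 to 0.36 elsewhere, and 0 of 8 were called. Among them Myl4, an embryonic and atrial light chain, differed by 0.51 ± 0.14 and Tnnt2, the embryonic and cardiac troponin T, by 0.78 ± 0.28. For markers of other cells, the low pair gave means of -0.81 and 0.45 for adipocytes, -0.56 and 0.11 for leukocytes, -0.03 and -0.25 for fibroblasts, and -0.40 and 0.33 for nerve, so the arrays of the pair differed from each other. On the other 5 arrays these means spanned -0.28 to 0.77, -0.55 to 0.73, -0.25 to 1.00 and -0.21 to 0.19. The endothelial means in the low pair were -0.30 and 0.10, those of smooth muscle -0.04 and -0.12, of satellite cells -0.22 and 0.05, and of erythroid cells -0.30 and 0.49. In the same order, the other 5 arrays spanned -0.42 to 0.23, -0.08 to 0.09, -0.17 to 0.31 and -0.29 to 0.44.

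The gene most like the mean of the 10 slow genes was Myoz2, with a Pearson correlation of 0.96 over the 7 arrays. It led the genes outside the set in the highest level class with a range over the arrays of at least 1. The next 9 were Pgls, Ogn, Atf5, Smtnl1, Pet100, Miga2, Acadl, Thbs4 and Gnb4, with correlations of 0.72 to 0.78. In all 9 wild-type replicate 1 was the lowest array, at -1.30 to -0.50, and replicate 2 lay at -0.33 to 0.06. The 5 most opposite were Dennd2c, Acvr1b, Acsl6, Cpeb4 and Enah, at -0.78 to -0.72. All these values rest on the same 7 arrays, and because the slow mean falls into a low pair and 5 others, the correlations rest largely on the low arrays.

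The promoter windows of the slow genes were compared with all windows of the same length. Of the 10 genes, 8 had a RefSeq window, 12 windows in all, and Atp2a2 and Sln had none in the table. An E-box was found in 12 of 12 windows, against 72.3% of 32851 windows of all genes and 9 of 12 windows of the fast fibre genes. An MCAT element was found in 3 of 12 (Myh7, Myl3 and Tnnc1), against 14.7% of all windows and 5 of 12 fast windows. The TATA box was found in 2 of 12 (Myl2 and Tnnt1), against 13.6% and 4 of 12. The MEF2 consensus was found in 1 of 12 (Casq2), against 3.19% of all windows and 3 of 12 fast windows. The core of NFAT sites (GGAAAA) was found in 1 of 12, against 23.4% and 3 of 12, and that of SOX sites (ACAAT) in 6 of 12, against 31.0% and 2 of 12. Windows of 1 gene can overlap, no matches of the capitalised motifs overlapped in the windows printed, and a match describes letters and no bound site.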

How the data were processed

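The table the authors deposited holds log2 values of 45101 probe sets for 7 arrays, each centred on the median of its probe set. The centring is read from the values, whose median was exactly 0 in all 45101 probe sets, with no value missing. GCOS 4.0 is named in the submitters' processing notes, and the summary method, scaling and centring are not given in the sources used here. Extraction with Trizol and labelling follow the labels' protocols. Arrays give no depth, so their number limits the precision. p-values measure the spread between arrays, which the labels call biological replicates.

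A rough level class (between 2 and 4, 4 and 8 or 8 and 16 on the log2 scale) was read from the step between neighbouring single-precision values, since that step grows with the size a value had before it was centred. It held 12.0% of probe sets in the highest class. Names came from the annotation of the array platform, with symbols updated by Entrez identifier from a RefSeq table of GRCm38.p6. Of 34958 with 1 symbol, 34945 were tested after control probe sets were left out, and 932 with several symbols and 9211 with none were not used. A gene took the mean of its probe sets in its highest class, 15 of the 22 probe sets of the slow genes.

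The genotype test was limma's moderated test (version 3.58.1, under R 4.3.3), with no covariate or filter and Benjamini-Hochberg adjustment over 18193 genes and a threshold of 0.05. The fit was tested on simulated data. Permutation tests used scipy 1.17.1. The members, the 2 low arrays and the gene lists were chosen with earlier results of these data known. Other genes are named by a fixed rule unless said otherwise. The rule took all 10 slow genes, the 2 to 4 smallest p-values in a list, the fast myosin heavy chains, and the genes most and least like the slow mean. Only the smallest p-value is named from the heart list, and no gene is named by p-value from the general muscle and cell marker lists. Main lists held other slow, fast, shared calcium, regulator, general muscle, embryonic and heart genes, and markers of smooth muscle, adipocytes, leukocytes, fibroblasts, endothelium, nerve, satellite and erythroid cells and cerebellum. Alternatives were single arrays left out, both low arrays left out, age, the replicate number as a block, other scalings, other probe set rules, a level filter and other eBayes settings. The deviations of same-numbered arrays correlated at -0.47, -0.29 and 0.13, so the numbers were not taken as pairs.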

Additional observations from a re-analysis of the deposited data

Results flagged for a closer look

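Within the wild-type group, Sln stood out in 1 array. Replicate 3 measured 1.01, on its probe set in the highest level class, and the other 3 wild-type arrays lay between -0.12 and 0.00, so the gap to the next array was most of the group's range. One further Atp2a2 probe set, 1443551_at, in the lowest level class, had wild-type replicate 2 at -0.0147 with the other 3 wild-type arrays at 0.00, a difference too small to carry a measurement. Such a gap arises by chance in some groups, about 1 in 20.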

How the results depend on the processing

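With limma no gene was called under any of the 17 alternatives, where the smallest adjusted p of any of them was 0.332, without wildtype replicate 1. The counts at an unadjusted p under 0.05 ran from 47 to 571 over the fits on all genes (260 with all arrays). The level filter, which tests fewer genes, gave 34. Of 159 values of the slow genes under these alternatives, 147 kept their direction and 12 turned. The level filter and the other eBayes settings leave each fold change as it was, so their values could not turn. Averaging all probe sets changes nothing for genes with 1 probe set. The count of 147 therefore does not measure how stable the directions are. Without wild-type replicates 1 and 2 the median over the 10 genes turned to -0.51, and the values were -0.49 for Myh7, -0.51 for Myl2, -0.51 for Myl3, -0.52 for Tnnt1, -0.93 for Tnni1, -0.69 for Tnnc1, -0.70 for Tpm3, -0.57 for Atp2a2 and -0.38 for Casq2. This follows from leaving out the low arrays. With single arrays left out, the median ran from 0.27 to 1.94, Casq2 from -0.0374 (without wild-type replicate 1) to 0.64 and Sln from -0.40 to 0.0721 (without wild-type replicate 3), with 0.00077 without mutant replicate 3. The median was 0.94 with age, 0.79 with quantile normalization of the centred values, 1.21 relative to the general muscle fibre genes and 1.27 with the mean over all probe sets. The replicate block, in which wild-type replicate 4 has no partner and adds nothing to the difference, gave a median of 1.90, 2.47 for Myh7 and 100 genes at an unadjusted p under 0.05. It equals the fit without that array in size and changed no call. The precision is set by 3 and 4 arrays, and the centred values hold no signal over background.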
